A study of Mus musculus with 6 samples.

Results

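The metabotropic glutamate receptor genes Grm2, Grm3, Grm4, Grm5, Grm7 and Grm8 were examined in mouse cerebral cortex, 6 of the 27670 gene and clone names on the array. They were read through every non-control probe whose gene name in the array files is one of these symbols, which gave 11 of 41174 probes: 4 for Grm5, 3 for Grm7 and 1 each for Grm2, Grm3, Grm4 and Grm8. All 6 samples are cortex of males: 3 carry the genotype label Cux2-/- and knock-out in the title (numbers 53, 48 and 54), and 3 serve as controls (numbers 15, 62 and 16). For the controls the labels conflict, with WT in the titles and Cux2+/- as genotype, so whether they are wild type or heterozygous is unsettled. Neither the construction of the mutant allele nor the age or strain of the mice is stated in the sources used here. Every sample had 1 array of its own, of the 1-colour Agilent kind. That each sample is a different mouse is not spelled out in the labels, and the p-values then reflect only the scatter among these arrays, which may be technical.

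Metabotropic glutamate receptors are class C G protein-coupled receptors that bind glutamate with a large extracellular domain and work as dimers, slower than the ion channel receptors for the same transmitter. Group I receptors, to which Grm5 belongs, couple through Gq to phospholipase C and calcium release and sit mainly around the postsynaptic density. Group II receptors (Grm2 and Grm3) and group III receptors (Grm4, Grm7 and Grm8) couple through Gi/o, lower cyclic AMP and act largely at presynaptic endings, where they restrain transmitter release. Cux2 encodes a homeodomain protein made by neurons of the upper cortical layers. The design compares the profiles of mutant and control cortex, and the question taken up here is whether the levels of these receptors differ between them.

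No receptor probe passed the test for a difference between the labelled knock-outs and the controls. Of the 11 probes, 8 were tested, covering Grm3, Grm5, Grm7 and Grm8, and 0 of these passed an adjusted p of 0.05 in limma (adjusted p from 0.744 to 0.972), where 0.13% of all 25445 tested probes did. At an unadjusted threshold of 0.05 the count was also 0 of 8, against 7.97% of all tested probes. The 95% intervals of the fold change, knock-out over control, lay between 0.783 and 1.27 over all 8 probes. They bound the difference of each of these 8 probes at these arrays' precision and under this scaling, and say nothing of the untested probes. The other 3 probes, for Grm2, Grm4 and the dimmest Grm7 target, were too dim to be tested. In whole cortex, fewer cells of a type and less receptor RNA per cell cannot be told apart.

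**Figure D1:**
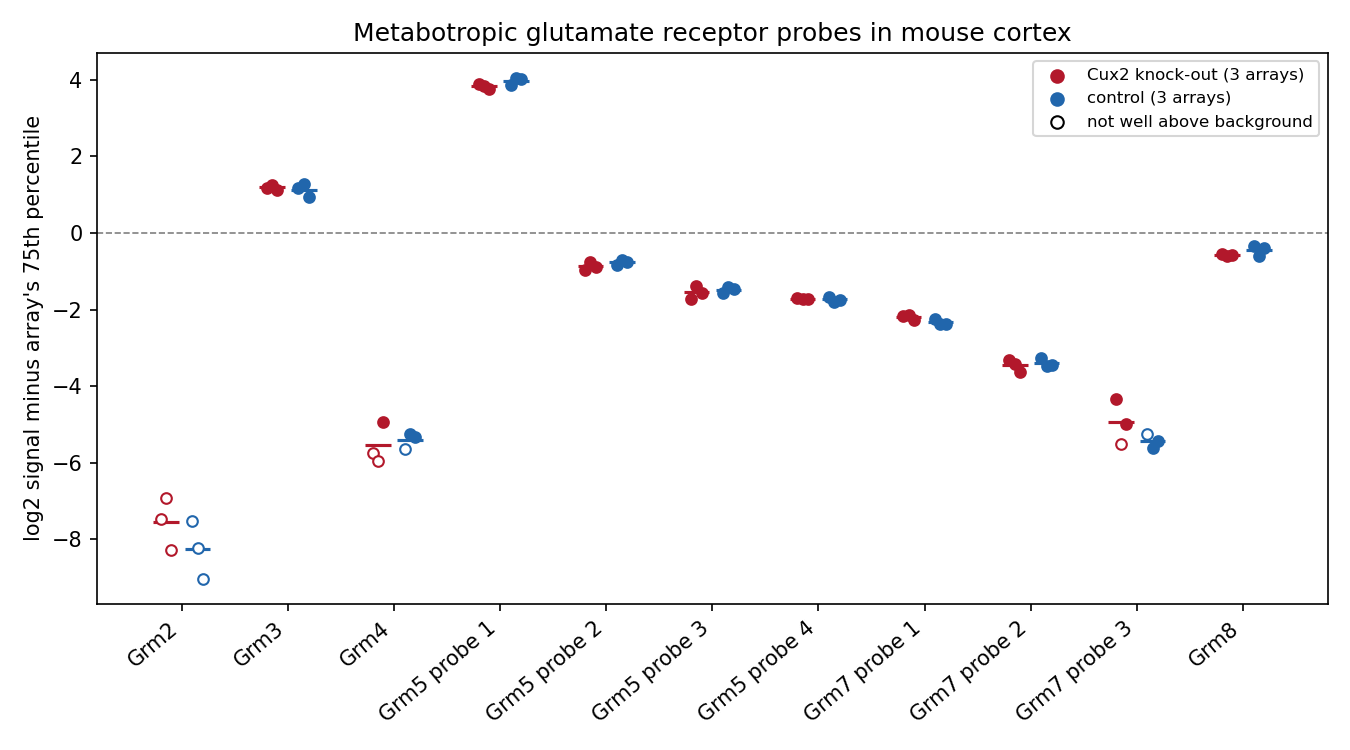
Log2 signal minus the array's 75th percentile for all 11 receptor probes, with 3 labelled knock-out arrays (red, left) and 3 control arrays (blue, right) per probe and a bar at each group's mean. Open circles are spots not well above background. The groups overlap for every probe, and the Grm2 probe is not well above background on any array.

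Between 58.5% and 68.1% of probes were well above background on the knock-out arrays, and between 62.7% and 72.7% on the control arrays. Tbr1, Neurod6, Emx1 and Slc17a7, genes of cortical excitatory neurons and of the progenitors that form them, were each well above background on all 6 arrays. One array stood apart: markers of the olfactory bulb averaged 2.33 above their own mean over the arrays on knock-out 54, against -0.76 and -0.70 on knock-outs 53 and 48 and -0.50 to -0.11 on the controls (log2, 7 measured genes). Differences of the receptor probes are therefore also given without knock-out 54, apart from the Grm2 probe, whose signal was too low. Cux2 itself, the targeted gene, had 2 tested probes. The brighter had levels of -0.04, -0.05 and -0.01 on knock-out arrays 53, 48 and 54 against -0.03, 0.27 and 0.03 on control arrays 15, 62 and 16 (log2 signal minus the array's 75th percentile, limma adjusted p = 0.837). The dimmer probe, named through the gene table, had -2.40, -2.64 and -2.23 in the knock-outs against -2.26, -2.71 and -2.53 in the controls (limma adjusted p = 0.946). The differences were -0.12 and 0.08, or -0.13 and -0.02 without knock-out 54. The positions of both probes within the gene, and of the mutation, are unknown here, so their levels are no check of the labels.

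Grm5, the group I receptor that is tied to Homer scaffolds at excitatory synapses, was read by 4 probes. The brightest had levels of 3.89, 3.83 and 3.76 on knock-out arrays 53, 48 and 54, against 3.85, 4.05 and 4.01 on control arrays 15, 62 and 16 (log2 signal minus the array's 75th percentile, as for all levels here). As processed signal these were 16520, 14890 and 16140 in the knock-outs and 15340, 14610 and 16590 in the controls, in arbitrary units. The knock-out arrays ran slightly lower after scaling, but knock-out 53 lay above control 15, so the groups overlapped. The means were 3.83 ± 0.07 in knock-outs and 3.97 ± 0.10 in controls (SD, n = 3 each), a difference of -0.14 (95% interval -0.35 to 0.07, limma adjusted p = 0.772).

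The second Grm5 probe had -0.97, -0.76 and -0.89 in the knock-outs and -0.83, -0.70 and -0.75 in the controls, a difference of -0.11 (95% interval -0.32 to 0.10, limma adjusted p = 0.834). The third probe had -1.71, -1.38 and -1.57 in the knock-outs and -1.56, -1.42 and -1.46 in the controls, a difference of -0.07 (95% interval -0.33 to 0.18, adjusted p = 0.923 in limma). The fourth probe had -1.70, -1.72 and -1.72 in the knock-outs and -1.66, -1.80 and -1.74 in the controls, a difference of 0.02 (95% interval -0.16 to 0.20, adjusted p = 0.972 in limma). The fourth probe thus stood slightly on the other side of 0 from the first 3, all within their intervals. It also varied differently from array to array. The second and the third probes moved together over the 6 arrays (Pearson 0.935), whereas the fourth ran opposite to each of the others (Pearson -0.68 with the first, -0.625 with the second and -0.505 with the third). Without knock-out 54 these were 0.944 between the second and the third, and -0.837, -0.658 and -0.508 for the fourth. These are descriptions over 6 arrays that share RNA, slide and scaling. All 4 probes carry the same transcript accession in the array files, and the files give neither their sequences nor their places in the transcript, so which isoforms or exons each reads is not known here.

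**Figure D2:**
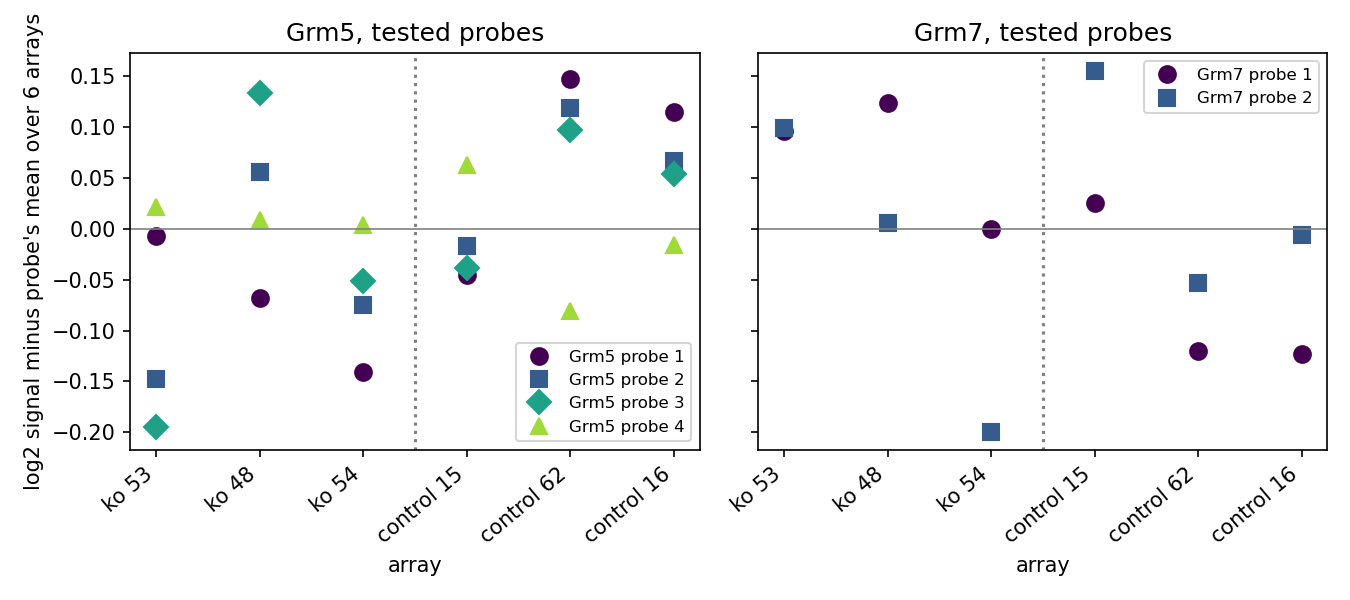
Deviation of log2 signal from each probe's mean over the 6 arrays, for the 4 Grm5 probes (left panel) and the 2 tested Grm7 probes (right panel), with knock-out arrays left of the dotted line and control arrays right of it. The second and the third Grm5 probes track each other while the fourth runs the opposite way, and the 2 Grm7 probes part most on knock-out 54.

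Grm3, the group II receptor found on astrocytes as well as neurons and known to respond to the dipeptide N-acetylaspartylglutamate (NAAG), had 1 probe. Its levels were 1.17, 1.26 and 1.13 on the knock-out arrays and 1.17, 1.27 and 0.94 on the control arrays. The highest and the lowest value both belonged to controls, and the 3 knock-out arrays lay between them. The means were 1.19 ± 0.07 in knock-outs and 1.13 ± 0.17 in controls (SD, n = 3 each), a difference of 0.06 (95% interval -0.20 to 0.32, limma adjusted p = 0.939). Without control 16, the lowest array, the difference was -0.03. Grm3 is the only one of the 6 receptor genes on the chromosome that carries Cux2, and 1869 genes of the GRCm38.p6 gene table lie between them.

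Grm2, the other group II receptor and mainly a presynaptic one, could not be assessed by the probe that bears its name. Its processed signal was 6.23, 8.68 and 3.84 on the knock-out arrays and 5.80, 2.94 and 1.96 on the control arrays, and it was well above background on 0 of 3 arrays in each group. The array file annotates that probe with a testis cDNA clone of unclassifiable product, so a low signal there says little about the receptor transcript. A probe outside the membership rule is described in the array file as a partial coding sequence of mouse metabotropic glutamate receptor 2. Its levels were -3.97, -2.45 and -2.28 on knock-out arrays 53, 48 and 54, against -3.94, -3.98 and -3.58 on control arrays 15, 62 and 16, with all 6 well above background. Knock-outs 48 and 54 were above every control, while knock-out 53 lay among the controls. On average this probe stood 0.93 higher in the knock-outs (95% interval -0.10 to 1.97, limma adjusted p = 0.665), or 0.62 higher without knock-out 54 (limma adjusted p = 0.833). The difference was 1.57 within slide 1 and -0.19 within slide 2. Knock-outs 48 and 54 share slide 1 with control 15, which lay between the other 2 controls in level. With 1 control on slide 1 and 1 knock-out on slide 2, each of these differences rests on a single array of 1 group. A further probe, for a diencephalon clone described as similar to the rat receptor 2 precursor, had -2.30, -2.07 and -1.66 in the knock-outs and -2.23, -2.35 and -2.00 in the controls (difference 0.19, limma adjusted p = 0.870), and differed by 0.01 without knock-out 54 (limma adjusted p = 0.992). It did not show the same split, since knock-out 48 lay below control 16.

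Among the group III receptors, Grm7, a low-affinity receptor of the presynaptic active zone, had 3 probes. The brightest gave -2.17, -2.14 and -2.27 on the knock-out arrays and -2.24, -2.39 and -2.39 on the control arrays. Knock-outs 53 and 48 were above every control and knock-out 54 was just below control 15, so the groups overlapped. With means of -2.19 ± 0.07 in knock-outs and -2.34 ± 0.08 in controls (SD, n = 3 each), the difference of 0.15 was the largest in size of the 8 tested probes and did not pass (95% interval -0.05 to 0.34, limma adjusted p = 0.744). The second probe stood on the other side of 0. It had -3.33, -3.42 and -3.63 in the knock-outs and -3.27, -3.48 and -3.44 in the controls, a difference of -0.06 (95% interval -0.32 to 0.20, adjusted p = 0.937 in limma). The third probe cleared background by the scanner software's flag on 2 of 3 arrays in each group and was not tested. Its processed signal was 55.4, 23.1 and 37.5 on the knock-out arrays and 27.9, 18.0 and 23.6 on the control arrays. The 2 bright knock-out arrays, 53 and 54, exceeded all controls and knock-out 48 did not. With the filter relaxed to 1 array, it differed by 0.50 (95% interval -0.26 to 1.26, limma adjusted p = 0.842). Its means differed by 0.52 without knock-out 54.

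Grm8, a presynaptic group III receptor with high glutamate affinity, had 1 probe, with -0.54, -0.59 and -0.58 on the knock-out arrays and -0.33, -0.60 and -0.40 on the control arrays. The knock-out arrays lay close together and all below controls 15 and 16, but control 62 was the lowest array of all. The means were -0.57 ± 0.03 in knock-outs and -0.44 ± 0.14 in controls (SD, n = 3 each), a difference of -0.13 (95% interval -0.35 to 0.10, limma adjusted p = 0.827). Grm4, a group III receptor best known from cerebellar granule cell endings, was near the detection limit, with its probe well above background on knock-out 54 and on controls 62 and 16. Its processed signal was 20.8, 17.0 and 39.1 on the knock-out arrays and 21.4, 23.1 and 25.8 on the control arrays. The highest array was knock-out 54, the one with high olfactory bulb markers, and the part of those markers in the Grm4 value was not tested. With the filter relaxed to 1 array its difference was -0.13 (95% interval -0.84 to 0.57, limma adjusted p = 0.960). Its means differed by -0.44 without knock-out 54.

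**Figure D3:**
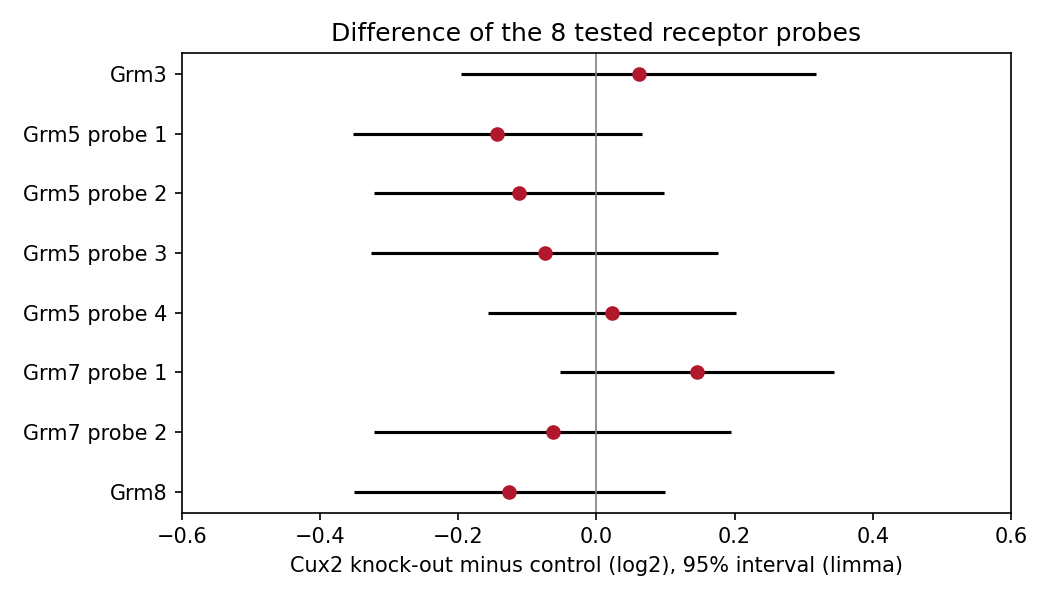
Difference in log2 signal, labelled knock-out minus control, for the 8 tested receptor probes, with 95% intervals from limma over 3 arrays per group. All 8 intervals include 0, and the values run from -0.14 for the brightest Grm5 probe to 0.15 for the brightest Grm7 probe.

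Taken as a set, 3 of the 8 tested probes were higher and 5 lower, with a median difference of -0.07, against 0.00 over all 25445 tested probes. This median counts Grm5 by 4 probes. By the brightest probe of each gene, Grm3 (0.06) and Grm7 (0.15) were higher and Grm5 (-0.14) and Grm8 (-0.13) lower. The median size of the difference, regardless of sign, was 0.09 for the receptor probes and 0.09 over all tested probes. The median SD within groups was 0.10 for the receptor probes and 0.14 over all tested probes. Groups did not overlap for 0 of the 8 probes, where 13.1% of all tested probes had such groups. Without knock-out 54 the differences were -0.11, -0.10, -0.07 and 0.03 for the 4 Grm5 probes, 0.09 for Grm3, 0.18 and 0.02 for the Grm7 probes and -0.12 for Grm8, with 0 of the 8 past the threshold (lowest limma adjusted p = 0.772). The slides held 2 knock-outs with 1 control (slide 1) and 1 knock-out with 2 controls (slide 2). Within slide 1 the difference was -0.06 for the brightest Grm5 probe, 0.03 for Grm3, 0.04 for the brightest Grm7 probe and -0.25 for Grm8. Within slide 2 the same probes differed by -0.14, 0.06, 0.22 and -0.04. These 4 kept their sign on both slides and the other 4 did not. The second, the third and the fourth Grm5 probes differed by 0.0074, 0.08 and -0.06 within slide 1 and by -0.24, -0.27 and 0.07 within slide 2, and the second Grm7 probe by -0.25 and 0.13. With slide as a block 0 of the 8 passed (lowest limma adjusted p = 0.833).

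In the controls, the brightest probe of each gene ran in the order Grm5, Grm3, Grm8, Grm7, Grm4 and Grm2, with mean levels of 3.97, 1.13, -0.44, -2.34, -5.41 and -8.26. The order was the same on all 6 arrays, and the 3 control arrays of each receptor lay wholly above those of the next. This is an order of spot brightness and not of transcript amount, because probes differ in how well they bind. The last place of Grm2 rests on the probe annotated with a testis clone, which was not well above background on any array. The probe described as a partial coding sequence of receptor 2 had a control mean of -3.83, above that of Grm4. The place of Grm2 is therefore not settled here. The control means of the 4 Grm5 probes, which name 1 gene, differed by 52.2-fold, and whether binding or the transcripts they read set this was not tested. The dimmer 3 lie below the single probes of Grm3 and Grm8. Grm6, a family member outside the rule that is known from retinal bipolar cells, was well above background on 0 of 3 arrays in each group.

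For each tested receptor, the gene with the most similar profile of the brightest probe over the 6 arrays was Nrgn for Grm3 (Pearson 0.997), Gusb for Grm5 (0.996), Naaa for Grm7 (0.993) and Ctsc for Grm8 (0.997), among 13588 named genes. Each of these is the highest of all the genes searched, over only 6 arrays. Between 19 and 44 genes per receptor exceeded 0.95.

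The genes that carry, end or feed the receptor signal were examined as 4 lists. Of 79 measured genes, 0 passed over all genes in limma (lowest adjusted p = 0.209), where 0.129% of all 17100 genes passed by their brightest probe. At an unadjusted p under 0.05 the count was 6 of 79, against 8.27% of all genes. Of the 79 genes 27 were higher and 52 lower, against 8247 higher and 8853 lower of all 17100 genes. On the Gq side 7 of 19 measured genes were higher and 12 lower, with a median difference of -0.03. Gnaq, the Gq alpha subunit, had levels of 2.98, 3.34 and 3.00 in knock-outs against 3.65, 3.49 and 3.48 in controls (difference -0.43, limma adjusted p = 0.442), but its second probe differed by only -0.04. Prkca, a protein kinase C, differed by 0.47 (adjusted p = 0.495 in limma) and Shank3, a postsynaptic scaffold, by 0.21 (adjusted p = 0.709). Homer1, whose products link Grm5 to its downstream partners, had levels of 1.47, 1.36 and 1.46 in knock-outs against 1.35, 1.44 and 1.14 in controls. Those groups overlapped, and the difference was 0.12 (95% interval -0.12 to 0.36, limma adjusted p = 0.840), with 0.15 and 0.29 for its other 2 probes.

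On the Gi/o side 8 of 24 measured genes were higher and 16 lower, with a median of -0.05. Prkar1a, a regulatory subunit of protein kinase A, had 2.25, 2.28 and 2.19 in knock-outs against 1.90, 1.83 and 1.81 in controls, a difference of 0.39 that did not pass (95% interval 0.22 to 0.57, adjusted p = 0.209 in limma). Its 3 knock-out arrays all lay above the controls, where 2327 of all 17100 genes had groups that did not overlap, in either direction. It is named here because its p was the lowest of the 79 genes. Adcy5, an adenylyl cyclase abundant in the striatum, had 0.75, 0.98 and 0.98 in knock-outs against 1.33, 1.41 and 1.19 in controls. Its difference was -0.40 (limma adjusted p = 0.385), and a second probe differed by -0.37. Markers of the striatum were also lower by group mean. This held for all 12 measured markers, with a median of -0.42, where 8853 of all 17100 genes were lower. Of the 12, 1 reached an unadjusted p under 0.05 in limma and 0 passed the threshold. Their mean deviation was -0.34, -0.10 and -0.22 on knock-outs 53, 48 and 54, and 0.47, 0.42 and -0.22 on controls 15, 62 and 16. Control 16 thus lay among the knock-outs for these markers but above them for Adcy5. The part of the markers in the Adcy5 value was not tested. Prkar2b, another regulatory subunit, differed by -0.25 (adjusted p = 0.655), and Elfn1, a postsynaptic adhesion protein that recruits Grm7, by -0.01 (adjusted p = 0.992, both in limma).

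Of the RGS proteins and receptor kinases, which end G protein signals, 4 of 19 were higher and 15 lower, with a median of -0.08 against -0.01 over all 17100 genes. Rgs16 differed by -0.26 (adjusted p = 0.564), Rgs17 by -0.25 (adjusted p = 0.608) and the kinase Grk5 by -0.15 (adjusted p = 0.773), none past the threshold in limma. Among genes of glutamate and NAAG handling 8 of 17 were higher and 9 lower, with a median of -0.02. Folh1, the enzyme that cleaves NAAG, differed by -0.27 (adjusted p = 0.772 in limma), and the vesicular glutamate transporter Slc17a7 by 0.05 (adjusted p = 0.929). The glutamate transporters Slc1a1, Slc1a3 and Slc1a2 differed by 0.13, -0.16 and -0.12, with limma adjusted p of 0.746, 0.786 and 0.859. Their other probes differed by 0.17 for Slc1a1, -0.06 for Slc1a3, and -0.27 and -0.16 for Slc1a2.

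**Figure D4:**
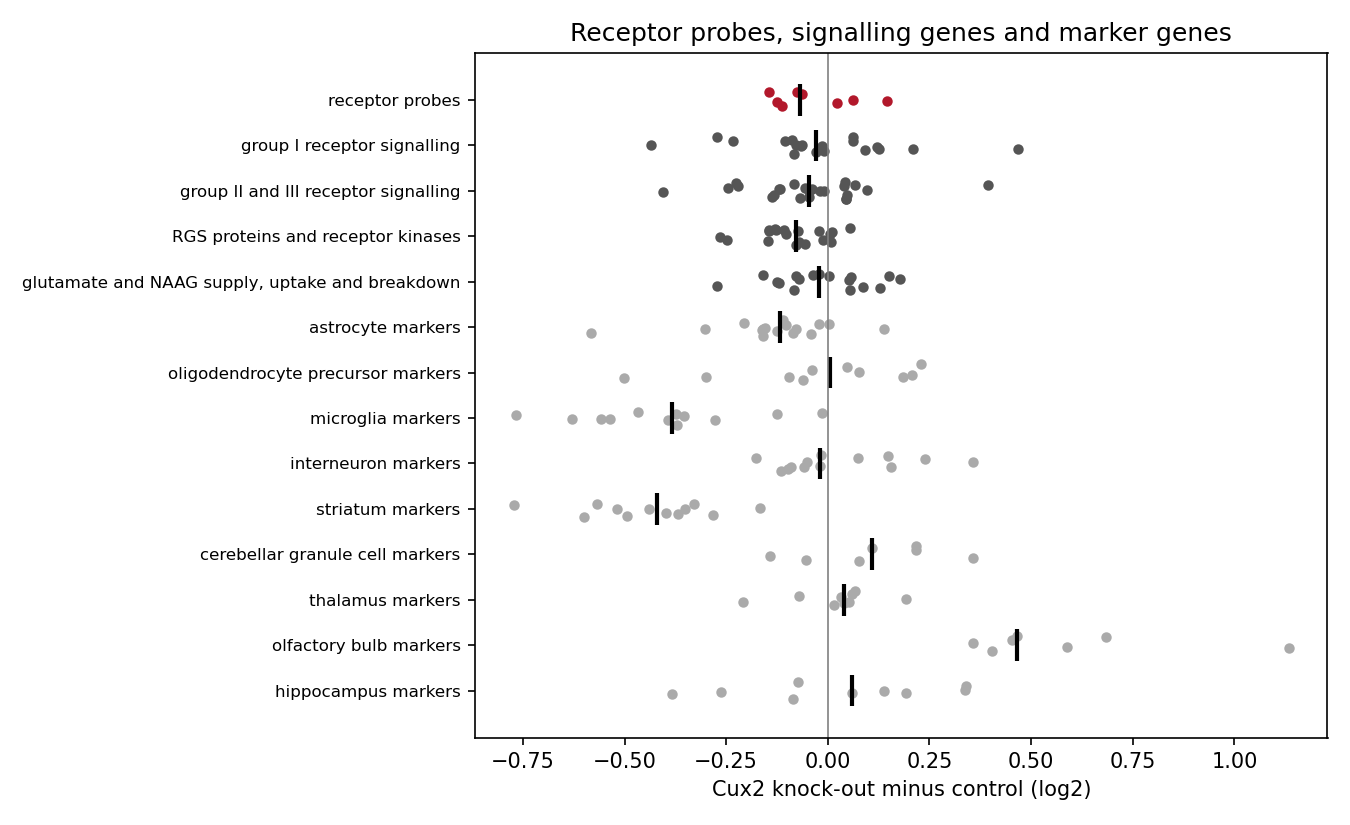
Difference in log2 signal, labelled knock-out minus control, for the 8 tested receptor probes (red), the genes of 4 signalling lists (dark grey) and the markers of other cell types and regions (light grey), each gene by its brightest probe. Black bars are medians: -0.07 for the receptor probes (4 of them for Grm5), -0.38 for microglia, -0.42 for striatum and 0.47 for olfactory bulb markers. In every list 0 genes passed the threshold.

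Markers of cells that also carry these receptors were set beside them. Of all 17100 genes by brightest probe 8853 were lower, and 8.27% reached an unadjusted p under 0.05 in limma. Astrocytes, which can bear Grm3 and Grm5, had 14 of 16 markers lower, with a median of -0.12. Of these markers 2 reached an unadjusted p under 0.05 and 0 passed the threshold. S100b was at -0.30 (limma adjusted p = 0.516). Gfap was at -0.58 by its brightest probe (limma adjusted p = 0.524) but at -0.14 and -0.12 by its other 2 probes. Grm3 stood at 0.06 and the Grm5 probes between -0.14 and 0.02, and the part of astrocyte content in those values was not tested. Of the oligodendrocyte precursor markers 5 of 10 were higher (median 0.01), and of the interneuron markers 5 of 13 (median -0.02). Microglial markers were lower in 12 of 12 (median -0.38), 10 of them at an unadjusted p under 0.05, where 4.38% of all genes were lower at that level, and 0 past the threshold over all genes. Of 10 cerebellar granule cell markers 7 were measured, 5 of them higher (median 0.11). Among the 7, 1 reached an unadjusted p under 0.05 in limma, Barhl1 (difference 0.22, adjusted p = 0.608), and 0 passed the threshold. Gabra6, Cbln3 and Fat2 had no probe in the test. Thalamus markers were higher in 7 of 9 measured (median 0.04), and hippocampus markers in 5 of 9 (median 0.06).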

How the data were processed

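Spot intensities come from Agilent Feature Extraction 9.1.3.1, per the file headers. The processed signal in the deposited files is background-subtracted and spatially detrended per array. A table of log2 values was also deposited by the authors. Its columns rank as the processed signal and differ at any 1 rank by at most 0.000703, so by that comparison they are quantile normalized. Control spots (1639 of 45018) and 120 outlier-flagged spot values were dropped, 0 spots were saturated, and repeated spots of a probe were averaged. Levels are log2 processed signal minus the 75th percentile of the array. Testing was limited to probes well above background throughout at least 1 group of 3 arrays and with no flagged value (25445 of 41174; the flag removed 62). The model was limma 3.58.1 (lmFit, eBayes; R 4.3.3), with p-values adjusted by Benjamini-Hochberg across every tested probe and 95% intervals from the same model. List genes were named through a GRCm38.p6 gene table by accession, symbol or synonym (8455 probes kept the array's name), and the brightest tested probe stood for a gene.

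The members and lists were chosen with earlier results of these data known. Named are all members, Cux2, up to 3 genes of lowest p per list, the partners Homer1, Elfn1, Slc1a2, Slc17a7 and Folh1, and the gene most like each tested member. Named besides these are Grm6 and the cerebellar markers Gabra6, Cbln3 and Fat2, none of which had a probe in the test. The 4 cortical marker genes and the array probes described as receptor 2 were added afterwards. Array numbers limit the precision. Slides were read from the file headers. Alternatives changed scaling, background correction, the filter, the variance model, array weights, the slide block, the source of values and the arrays used. The procedure was run on simulated data with added changes, and how many of them it recovered is not reported here. Plots were made with matplotlib 3.10.9 under Python 3.11.15.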

Additional observations from a re-analysis of the deposited data

How the results depend on the processing

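Under all 18 alternatives, leaving out each array included, 0 receptor probes passed in limma, with lowest adjusted p from 0.438 to 0.988. The 4 signalling lists likewise gave 0 genes past the threshold under these and with the mean of a gene's probes (lowest adjusted p from 0.088 to 0.988). Signs of such small values were not fixed. Without scaling between arrays, which moved the median of all probes by 0.175, differences turned to 0.031, 0.063 and 0.10 for the first 3 Grm5 probes, 0.11 for the second Grm7 probe, 0.049 for Grm8, 0.028 for Grk5, 0.015 for Slc1a3, 0.16 for Elfn1 and 0.050 for Slc1a2. Relative to that shift each of these lay below 0. Normexp gave 0.044 for the third Grm5 probe, 0.31 for the second Grm7 probe and 0.16 for Folh1. On knock-outs 48 and 54 and control 16, normexp over all spots gave lower quartiles of 8.41, 9.54 and 9.32 (log2), against 6.27 on knock-out 53 and 6.18 and 6.09 on controls 15 and 62. Those 3 arrays hold 7, 5 and 6 spots whose local background exceeds their signal by over 50 units, and the others 0. Normexp without those spots, an alternative chosen after seeing the data, gave -0.022 for the fourth Grm5 probe and 0.010 for Elfn1, with 43 calls over all probes. Median scaling gave -0.014 for the fourth Grm5 probe, and the slide block 0.036 for Elfn1. With single arrays left out the ranges were -0.034 to 0.13 for Grm3, -0.16 to 0.0035 for the third and -0.012 to 0.060 for the fourth Grm5 probe, -0.13 to 0.020 for the second Grm7 probe and -0.10 to 0.065 for Elfn1. The brightest Grm7 probe kept its sign throughout, from 0.11 with median scaling to 0.32 without scaling. The value without scaling includes the shift of 0.175 in the median of all probes. Over all probes, 33 calls became 0 with normexp over all spots (lowest limma adjusted p = 0.988, 149 probes at an unadjusted p under 0.05), 3 and 2 with filters of at least 1 array and no filter, 15 with the slide block, and 2 (without control 16), 7 (without control 15), 12 (without knock-out 54) or 60 (without knock-out 53) as arrays were left out. Apart from the normexp spots, the cause was not tested. No paired analysis was possible because the groups share no replicate number. Depth of signal over background kept Grm2, Grm4 and the third Grm7 probe out of the test.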
